A study of Mus musculus with 2 samples.

Results

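The 10 genes described here are the mitosis genes Mki67, Top2a, Ube2c, Cdc20, Ccnb1, Ccnb2, Cdk1, Birc5, Plk1 and Aurkb, chosen by symbol from a fixed list out of the 32286 features of each matrix. All 10 were present under exactly 1 feature each, and all are protein-coding. They were measured in hematopoietic cells of mouse bone marrow, in 2 droplet-based single-cell libraries of transcript 3′ ends, 1 library per group. The control library came from the genotype Mx1Cre+/-;Rosa26+/+, and the MYC library, whose cells are called MYC cells here, from Mx1Cre+/-;Rosa26LSL-MYC/LSL-MYC. Both groups carry Mx1-Cre, a recombinase under an interferon-inducible promoter that acts in many tissues besides blood, and the MYC group carries on both Rosa26 alleles a MYC transgene that is silent until Cre excises the stop cassette in front of it. The series set out to see what excess MYC in hematopoietic stem cells does to expression in the marrow. Age, inducer, time after induction and number of animals are not given in the labels. With 1 library per group nothing could be tested, genotype and library preparation cannot be told apart, and all intervals are 95% intervals that cover counting error only.

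These genes act when a cell divides. Cdk1 is the kinase that starts mitosis, Ccnb1 and Ccnb2 encode its cyclin B partners, and Plk1 and Aurkb are the kinases that drive spindle assembly and chromosome attachment. Birc5 (survivin) holds Aurkb at the centromere in the chromosomal passenger complex, Cdc20 activates the anaphase-promoting complex, and Ube2c is the ubiquitin-conjugating enzyme that serves it. Top2a untangles sister chromatids, and Mki67 encodes the Ki-67 protein that coats mitotic chromosomes and is the classical stain for cycling cells. Their transcripts build up through S and G2 and are shut off as cells leave the cycle, which in the neutrophil lineage happens between the progenitor stages and the mature, non-dividing neutrophil.

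The promoters are printed for 5 of the genes whose levels went in opposite directions between the libraries. RefSeq promoter windows (GRCm38.p6, 250 bases before to 50 after the annotated start) were found for 9 of the 10 genes, all except Aurkb. Each line gives up to 150 bases before the RefSeq start, 5′ to 3′ on the gene's strand, and ends just before it, except that the line of Ube2c stops 6 bases and that of Cdk1 stops 1 base short of that point. Capitals mark matches on either strand to TTTGAA, the core of the cell cycle genes homology region (read TTCAAA on the other strand), and to CCAAT, whose other strand reads ATTGG. In these windows no match to one motif shares letters with a match to the other. Mki67 lies at chr7:135716380-135716529 (minus strand), Top2a at chr11:99024190-99024339 (minus strand), Ube2c at chr2:164769779-164769922 (plus strand), Cdk1 at chr10:69352914-69353062 (minus strand) and Birc5 at chr11:117849087-117849236 (plus strand).
Mki67: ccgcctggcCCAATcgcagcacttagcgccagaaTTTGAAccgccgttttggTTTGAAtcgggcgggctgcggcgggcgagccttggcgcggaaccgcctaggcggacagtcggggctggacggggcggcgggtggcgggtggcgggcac
Top2a: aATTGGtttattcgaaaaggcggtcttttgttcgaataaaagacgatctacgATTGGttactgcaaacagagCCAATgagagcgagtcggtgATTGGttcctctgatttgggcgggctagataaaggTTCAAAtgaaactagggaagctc
Ube2c: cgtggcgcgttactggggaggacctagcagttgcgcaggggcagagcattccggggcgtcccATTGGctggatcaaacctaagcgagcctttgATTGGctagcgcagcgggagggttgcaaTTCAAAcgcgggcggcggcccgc
Cdk1: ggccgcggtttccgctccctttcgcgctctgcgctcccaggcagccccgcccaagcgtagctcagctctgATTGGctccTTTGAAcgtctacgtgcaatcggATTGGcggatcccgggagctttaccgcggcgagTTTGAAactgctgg
Birc5: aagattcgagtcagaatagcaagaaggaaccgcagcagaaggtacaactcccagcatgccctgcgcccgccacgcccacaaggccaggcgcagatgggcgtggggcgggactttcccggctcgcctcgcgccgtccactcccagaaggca
Over the whole 300-base window TTTGAA occurred in 7 of the 9 promoters, all but those of Ccnb1 and Birc5, against 18.1% of the 27025 genes with a window. CCAAT occurred in 8 of 9, all but that of Birc5, against 37.9%, and both motifs occurred in 7 of 9 against 7.12%. Mki67 and Top2a, lower in the MYC library, carry both motifs, as do Ube2c and Cdk1, which were higher in several classes, while Birc5, also higher, carries neither. A match is a description of the letters and not a binding site.

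Totals were 131884603 and 110012176 unique molecular identifiers (UMIs) over 17073 control barcodes and 14496 MYC barcodes, and 97 barcode sequences occurred in both. After filters and removal of called doublets, 14903 and 12540 cells were kept, with medians of 5343 and 6016 UMIs. The feature named MYC, taken from its name as that of the transgene, had 0 UMIs in the control cells of 2000 or more UMIs and was detected in the MYC library. Cells were clustered without the 10 genes, and clusters were called by the cell type that their markers resembled ("-like"), so these names may differ from the study's own. Cluster 7, of 2489 and 2613 cells with a median depth of 750 and 805 UMIs, stayed unnamed. Levels are UMIs per 1000000 UMIs of a class (CPM), and since 3′ UMIs were not scaled for capture, levels are compared between libraries and classes for 1 gene at a time, not between genes. To set cells of unequal depth side by side, each cell was thinned to 2000 UMIs. This left out 3318 control cells (22.3%) and 3568 MYC cells (28.5%). A cell with 2 or more UMIs summed over the 10 genes after thinning is called positive. The compared classes are the 10 with at least 100 thinned cells in each library.

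Over all cells the share of positive cells was nearly the same in both libraries, 38.3% of 11585 control cells (37.4 to 39.1) and 38.9% of 8972 MYC cells (37.9 to 39.9). The difference of 0.665 percentage points had an interval of -0.683 to 2.01, and the difference changed sign with the threshold (-1.02 points with 1 or more UMIs, 1.2 with 3 or more) and at 4000 UMIs (-1.75). Without Mki67 and Top2a it was 3.55 points. Without thinning the shares were 58.5% and 57.6%. With each class weighted as in the control library they were 37.8% and 39.4%. What differed was where the positive cells were. Of the positive cells 18.9% in the control but 7.04% in the MYC library lay in cluster 12, whereas monocyte-like cells made up 13.9% and 26.2% of them and immature neutrophil-like cells 26.1% and 35.9%. The classes' shares of all thinned cells differed the same way, with 7.24% and 2.75% for cluster 12, 10.7% and 17.2% for monocyte-like cells and 29.3% and 36.1% for immature neutrophil-like cells.

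Cluster 12 had the highest share of positive cells of any class compared, 837 of 839 control cells (99.8%) and 246 of 247 in the MYC library (99.6%). It was led by Gm867, Hemgn and Apol8, of which Hemgn is an erythroid gene, but none of its 10 leading genes was on the erythroid marker lists, so it was left without a name. All 9 haemoglobinizing erythroblast markers had UMIs in it, summing to 115016 and 146123 CPM, and all 8 early erythroid markers, summing to 3735 and 3414 CPM. The median positive cell there carried 17 mitosis-gene UMIs per 2000 for the control against 13 for MYC. Early erythroid progenitor-like cells had 89.2% of 241 control cells (84.6 to 92.8) and 75.3% of 97 MYC cells (65.5 to 83.5) positive, too few in the latter for the comparison set here. Haemoglobinizing erythroblast-like cells stood at 44.9% of 225 and 50.7% of 71.

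In the neutrophil lineage the share was lower at each later stage in both libraries. Granulocyte progenitor-like cells, which express the primary granule genes Elane, Mpo and Prtn3, were positive in 75.1% of 579 control cells and 71.7% of 509 MYC cells, a difference of -3.42 points whose interval (-8.82 to 1.96) included 0. Over 13 alternatives the difference ran from -9.52 points, at the coarser clustering, to 1.16 points. It kept its sign in 12 of them, and its interval included 0 in 6 of 13. Immature neutrophil-like cells stood at 34% of 3399 and 38.7% of 3239, 4.68 points higher in the MYC library (2.34 to 7.01). Mature neutrophil-like cells stood at 14.7% of 2382 and 9% of 1745. Within the immature class the clusters differed widely. Immature cluster 5, led by replication-dependent histone genes beside Camp and Chil3, was positive in 98.5% of control cells and 96.1% of MYC cells, cluster 3 in 30.5% and 29.3%, and cluster 6, led by Thbs1 and Mmp8, in 8.43% and 4.45%. Each of the 3 shares was lower in the MYC library, for cluster 3 within counting error, while that of the class was higher. Cluster 5 held 654 of the class's 3606 control cells and 932 of its 3495 MYC cells. The difference in the class was 16.8 points with doublets kept, 9.91 with a minimum of 1000 UMIs and 500 genes per cell and 0.851 with 1 or more UMIs.

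Most positive mature neutrophil-like cells carried few UMIs of the 10 genes. Mature neutrophils do not divide, and 73.4% of their positive control cells and 77.1% of their positive MYC cells carried exactly 2 UMIs, against 17.1% and 12.7% in immature neutrophil-like cells. At a threshold of 5 UMIs, added after the data were seen, 6 of 2382 control cells (0.252%) and 5 of 1745 MYC cells (0.287%) remained, while immature neutrophil-like cells kept 22.7% and 26.9% and granulocyte progenitor-like cells 41.1% and 35.2%. Plasma cell-like cells, a largely non-dividing type, were positive in 10.3% of 242 and 8.43% of 83 cells at the 2-UMI threshold, with medians of 20994 and 18117 UMIs before thinning against 3466 and 4755 in mature neutrophil-like cells. At 5 UMIs plasma cell-like cells kept 2.89% and 3.61%, more than the mature neutrophil-like cells. Positive plasma cell-like control cells had granulocyte progenitor markers at 4624 CPM against 1126 CPM in the others, and erythroblast markers at 11128 against 1132 CPM. Mature neutrophil markers were lower in them, at 232 against 380.1 CPM. The part of RNA from other cell types was not tested. A share near those of plasma cell-like and mature neutrophil-like cells at the 2-UMI threshold is not read here as a share of dividing cells. The mature class was also made of different clusters in the 2 libraries, clusters 0 and 1 holding 1009 and 1383 of its 2657 control cells and cluster 2 holding 1549 of its 1916 MYC cells. Within each of the 3 clusters the positive share was lower in the MYC library, 11.2% and 10.6% in cluster 0, 17.9% and 10.8% in cluster 1 and 12.3% and 8.63% in cluster 2, with overlapping intervals in each. Erythroblast markers, which a neutrophil does not make, summed to 3137 CPM for the control against 1623 CPM for MYC in this class, with 9 of 9 detected in each. The part that free RNA played was not tested.

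**Figure D1:**
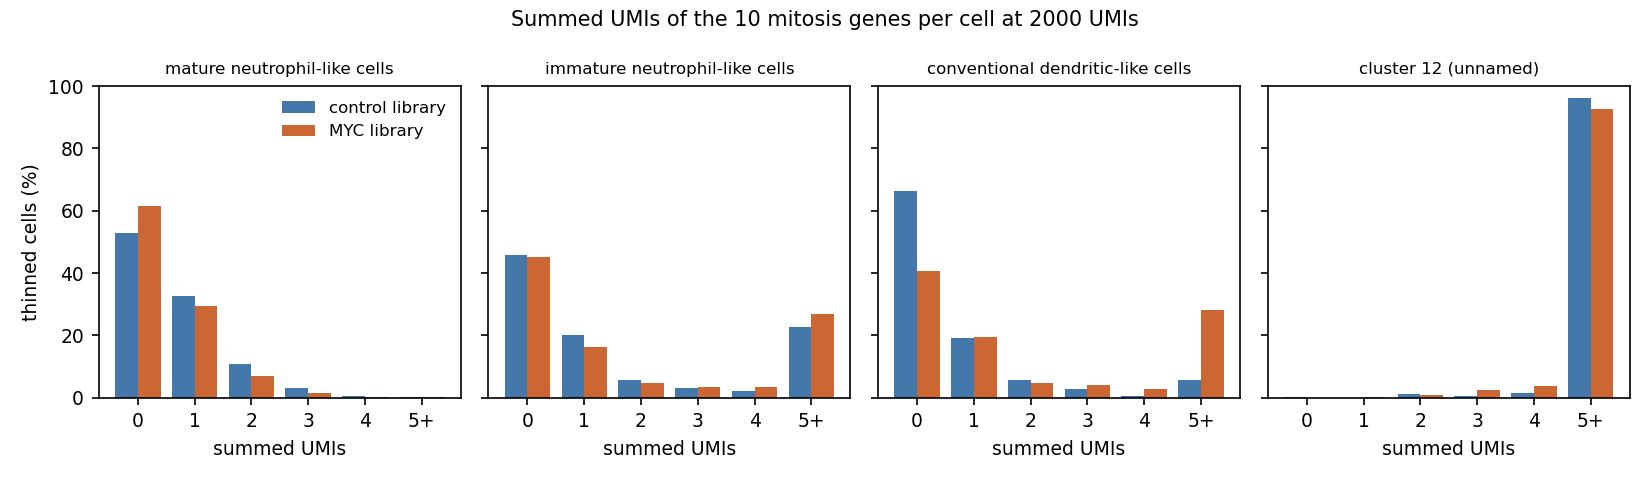
Percent of thinned cells (vertical axis) by the number of UMIs summed over the 10 mitosis genes at 2000 UMIs per cell (horizontal axis, 5+ pools 5 or more), for 4 classes, blue for the control and orange for the MYC library. Mature neutrophil-like cells thin out to 0.252% and 0.287% at 5 or more, immature neutrophil-like cells have 22.7% and 26.9% in that pooled bar, and cluster 12 lies almost wholly in it.

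Monocyte-like cells were positive more often in the MYC library, 59.3% of 1544 against 49.96% of 1235, a difference of 9.3 points (5.53 to 13.1) that ran from 4.85 to 13.6 over the 13 alternative settings. The 2 clusters of the class differed less. Cluster 21, led by Nrg1, Ass1 and F13a1, was positive in 89% of control cells and 88.3% of MYC cells and cluster 9, led by Fn1 and Vcan, in 30.6% (27.5 to 33.9) and 35.1% (31.9 to 38.4). Cluster 21 held 410 of 1246 monocyte-like control cells and 701 of 1554 such MYC cells. Basophil or mast-like cells stood at 41.8% of 184 and 53.8% of 143, 12 points higher in the MYC library (0.654 to 23), an interval that included 0 in 4 of 13 alternatives. T or NK-like cells stood at 16.1% of 378 and 25.4% of 122, and their difference of 9.27 points was 0.673 when cells were thinned to 1000 UMIs and 2.88, with an interval that included 0, at 5 UMIs.

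Among the compared classes the largest difference in share was in cluster 19, the conventional dendritic-like cells, which were positive in 14.6% of 213 control cells (10.1 to 20.02) and 39.7% of 174 MYC cells (32.3 to 47.3). The 25.1 points (16 to 34) became 22.5 at 5 UMIs, where the shares were 5.63% and 28.2%, and 11.7 with cells under 5% mitochondrial UMIs. Cluster 19 was led by Mrc1, H2-Eb1, H2-Ab1, H2-Aa and Axl, of which Mrc1 and Axl are on the macrophage list. All 9 conventional dendritic markers were detected in both libraries, summing to 17017 CPM for the control against 12828 CPM for MYC. Markers of other types also differed there, with macrophage markers (9 of 9 detected) at 2108 and 1104 CPM, granulocyte progenitor markers (7 of 7) at 1303 and 699.7 CPM and erythroblast markers (9 of 9) at 4114 and 782 CPM. All 3 lists were lower in the MYC library, where the mitosis genes were higher. In the positive control cells of this class granulocyte progenitor markers stood at 4574 CPM and erythroblast markers at 13054 CPM. The other control cells had 537 and 1836 CPM. In the MYC library the levels were 921 and 709 CPM in positive cells against 502 and 747 CPM in the others. The part of these markers in the difference was not tested.

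Stem or multipotent progenitor-like cells, marked by Mecom, Meis1 and Hlf, were positive less often in the MYC library, 33.9% of 168 (26.8 to 41.6) against 48.7% of 199 (41.6 to 55.9). The difference of -14.8 points (-24.9 to -4.33) kept its sign in all 11 alternatives that gave a value, between -15.6 and -4.76, the smallest without Mki67 and Top2a, but the interval included 0 in 6 of them. Median depth before thinning was 19054 UMIs for the control and 14042.5 for MYC. Granulocyte progenitor markers (7 of 7 detected) stood at 3099 and 5195 CPM and immature neutrophil markers (8 of 8) at 3193 and 986 CPM in this class. Eosinophil markers (5 of 6 in each library, with Ccr3 at 0) stood at 227 and 1437 CPM there, and B progenitor markers (7 and 4 of 8) at 113 and 15.8 CPM. Their part in the difference was not tested. Mature B-like cells were at 15.5% of 548 and 10.00% of 120, and at 5 UMIs 3.83% of the control cells remained against 0 of 120 in the MYC library (exact interval up to 3.03%).

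Before thinning the shares by class were 85.5% and 75.9% in stem or multipotent progenitor-like, 55.3% and 55.9% in immature neutrophil-like, 32.7% and 31.1% in mature neutrophil-like, 76.1% and 85.1% in monocyte-like and 43.1% and 60.4% in conventional dendritic-like cells.

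**Figure D2:**
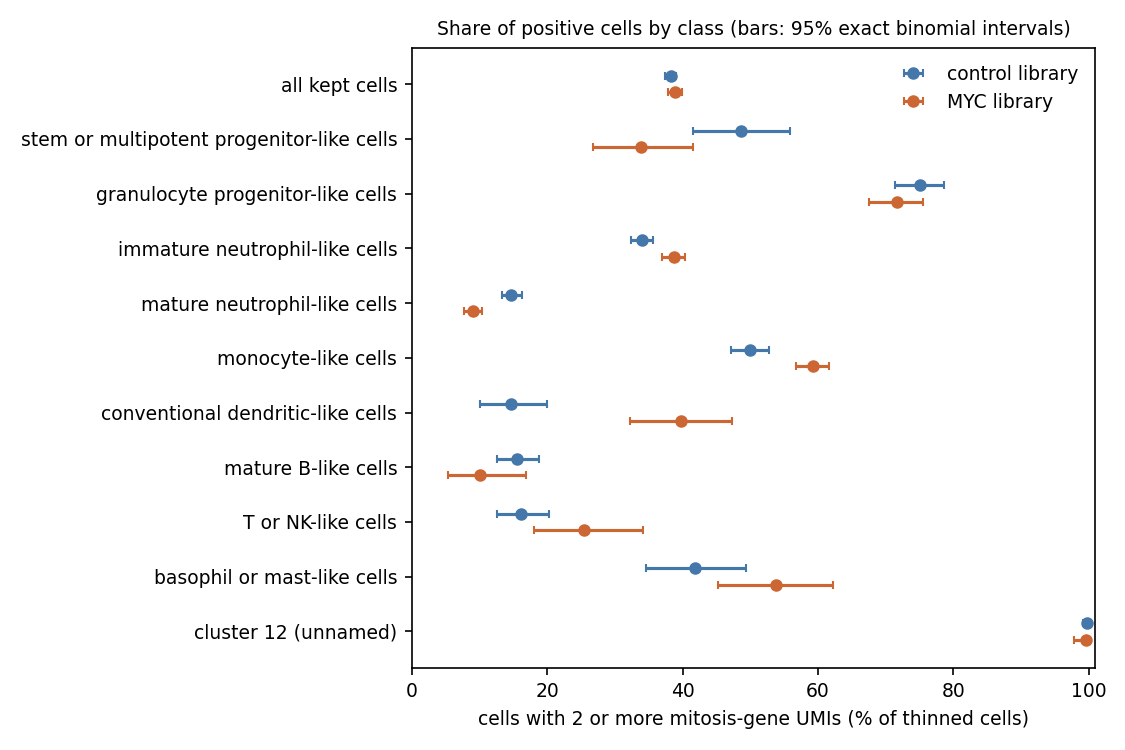
Percent of thinned cells with 2 or more summed mitosis-gene UMIs (horizontal axis) for all kept cells and each class with at least 100 thinned cells per library (vertical axis), with exact binomial 95% intervals, blue for the control and orange for the MYC library. All cells lie at 38.3% and 38.9%, while conventional dendritic-like cells lie at 14.6% and 39.7% and stem or multipotent progenitor-like cells at 48.7% and 33.9%.

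Among the chromosome-structure genes, and of all 10 over all cells, Mki67 differed most between the libraries. Over all cells it stood at 1032 CPM for the control (125565 UMIs) against 521 CPM for MYC (53042 UMIs), a log2 ratio of -0.99 that lay between -1.13 and -0.67 in the 6 alternatives. Cluster 12, with 7.24% and 2.75% of the thinned cells, held 53438 of these control UMIs and 8184 of these MYC UMIs. The part of class mix in the all-cell ratio was not tested. Mki67 was lower in the MYC library, by more than counting error, in 8 of the 10 compared classes. Granulocyte progenitor-like cells had 652 and 369.8 CPM (log2 ratio -0.82), immature neutrophil-like cells 719.5 and 491 CPM (-0.55), and monocyte-like cells 827 and 633 CPM (-0.38). In cluster 12 it stood at 4235 and 2372 CPM (-0.84), in stem or multipotent progenitor-like cells at 597 and 334 CPM (-0.84), and in basophil or mast-like cells at 775 and 587 CPM (-0.40). These classes all kept the direction in the alternatives run on them. The exceptions among the compared classes were T or NK-like cells, at 298 and 265 CPM with an interval of the ratio that included 0, and conventional dendritic-like cells, at 268 and 504 CPM (0.91). Among classes with too few cells to be compared, Mki67 stood higher in the MYC library in some, such as plasmacytoid dendritic-like cells (304 and 365 CPM) and haemoglobinizing erythroblast-like cells (514 and 713 CPM), and lower in others, such as early erythroid progenitor-like cells (1162 and 502 CPM).

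Top2a, the topoisomerase that separates sister chromatids, went the same way by less over all cells and in most compared classes. Over all cells its level was 575 CPM for the control against 441 CPM for MYC (log2 ratio -0.38, -0.40 to -0.37). Granulocyte progenitor-like cells had 568 and 429.8 CPM (-0.40) and cluster 12 had 1412 and 1130 CPM (-0.32). In immature neutrophil-like cells it stood at 512 and 444 CPM (-0.20) and in monocyte-like cells at 632 and 589 CPM (-0.10), and these ratios were 0.00 and 0.04 under median-of-ratios scaling and 0.00 and 0.05 as a mean over cells. In conventional dendritic-like cells it was higher in the MYC library by more than Mki67 (1.40 against 0.91). The 2 genes were close in mature B-like cells (-1.78 and -1.80).

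The mitotic kinase Cdk1 was higher in the MYC library in granulocyte progenitor-like, immature neutrophil-like and monocyte-like cells. It stood at 93 CPM for the control against 121 CPM for MYC in immature neutrophil-like cells (log2 ratio 0.37, 0.30 to 0.44), at 128 and 164 CPM in granulocyte progenitor-like cells (0.35) and at 104 and 132 CPM in monocyte-like cells (0.35). Over all cells it was at 107 and 117 CPM (0.13). These are levels of whole classes, and cluster 5, in which nearly all cells were positive, made up 654 of 3606 immature neutrophil-like cells in the control and 932 of 3495 in the MYC library. Its part in that class's levels was not tested. In these 3 classes its cyclins differed by less. In monocyte-like cells Ccnb1 stood at 65.3 and 79 CPM (0.27) and Ccnb2 at 110.4 and 125 CPM (0.18). Ccnb1 stood at 48.6 and 47.3 CPM in immature neutrophil-like cells, within counting error, and at 70.01 and 58.4 CPM over all cells (-0.26). Ccnb2 stood at 85.1 and 93.6 CPM in immature neutrophil-like cells (0.14) and at 102 and 96.2 CPM over all cells (-0.09), the latter turning to 0.12 under median-of-ratios scaling. A Ccnb1 pseudogene, Ccnb1-ps, is annotated and is not among the features, so reads of the 2 copies may not have been told apart.

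Both chromosomal passenger genes were higher in the MYC library in the same classes. Birc5 stood at 129 CPM for the control against 181 CPM for MYC in immature neutrophil-like cells (log2 ratio 0.49, 0.44 to 0.55), at 160.2 and 221 CPM in granulocyte progenitor-like cells (0.46), at 168 and 227 CPM in monocyte-like cells (0.43) and at 541 and 815 CPM in cluster 12 (0.59). In basophil or mast-like cells its levels were 126 and 256 CPM (1.02). Aurkb, its kinase partner, differed by less, with 42.4 and 51 CPM in immature neutrophil-like cells (0.27, 0.16 to 0.37), 66 and 73.5 CPM in granulocyte progenitor-like cells (0.16), and 86.3 and 94.4 CPM in monocyte-like cells (0.13), the last of which turned to -0.01 with the 20 most abundant genes left out of the total. Plk1, the polo-like kinase, stood at 85.3 and 73.2 CPM in granulocyte progenitor-like cells (-0.22, turning to 0.07 under median-of-ratios scaling), at 63.6 and 60.6 CPM in immature neutrophil-like cells, within counting error, and at 77.1 and 82.8 CPM in monocyte-like cells (0.10, turning to -0.03 with the 20 most abundant genes left out of the total).

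Of the anaphase genes, Ube2c was higher in the MYC library in the same 3 classes and Cdc20 differed by less there. Ube2c stood at 233 CPM for the control against 299 CPM for MYC in immature neutrophil-like cells (log2 ratio 0.36, 0.31 to 0.40), at 267 and 342 CPM in granulocyte progenitor-like cells (0.36), at 248 and 312 CPM in monocyte-like cells (0.34) and at 871 and 1175 CPM in cluster 12 (0.43). Over all cells it was at 269.9 and 287 CPM (0.09), a ratio of -0.00 with the 20 most abundant genes left out of the total. Cdc20 stood at 63 and 66.3 CPM in immature neutrophil-like cells and 79.8 and 79.1 CPM in granulocyte progenitor-like cells, where both intervals included 0, and at 75.2 and 93.2 CPM in monocyte-like cells (0.31, 0.21 to 0.41). Ube2c overlaps Tnnc2, and Cdc20 overlaps Elovl1, each on the opposite strand, and whether counting used strand is not given in the sources used here.

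**Figure D3:**
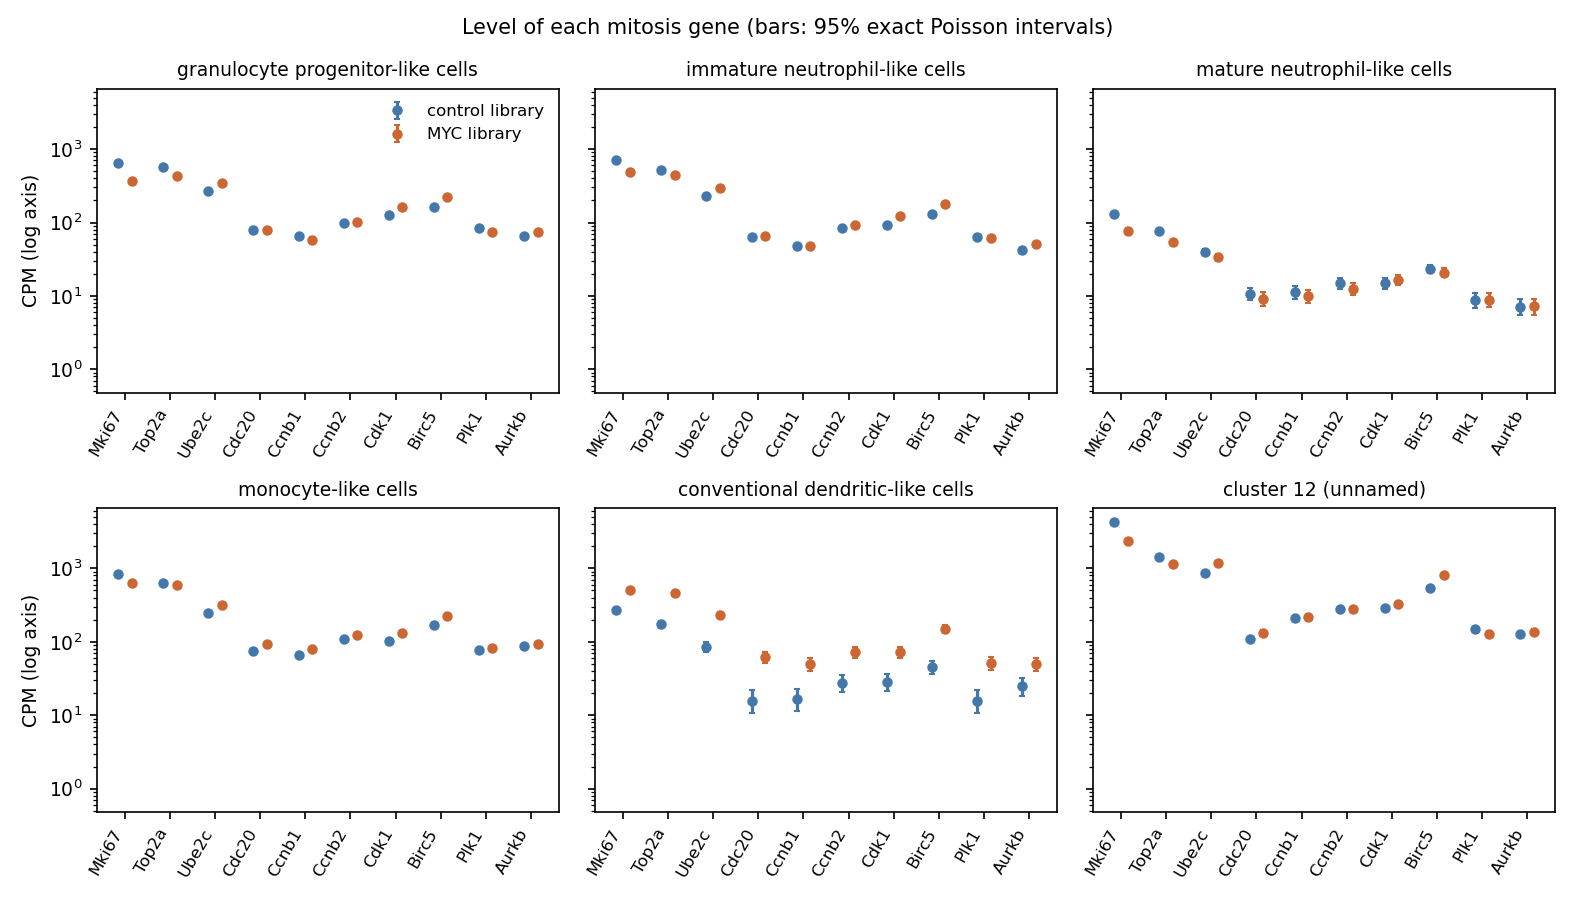
Level of each of the 10 mitosis genes in CPM (vertical log axis) in 6 classes, blue for the control and orange for the MYC library, with exact Poisson 95% intervals that are often smaller than the points. Mki67 is lower in the MYC library in every panel but that of conventional dendritic-like cells, where all 10 genes are higher, and Birc5 is higher in 5 of the 6 panels, the exception being mature neutrophil-like cells with 23.4 and 20.8 CPM.

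Conventional dendritic-like cells and mature B-like cells were the 2 compared classes in which all 10 ratios had the same sign, although in mature B-like cells the intervals for Cdc20, Plk1 and Aurkb, each on 8 MYC UMIs, included 0. All 10 also stood higher in the MYC library in plasmacytoid dendritic-like, haemoglobinizing erythroblast-like and megakaryocyte-like cells and in cluster 23, which had too few cells to be compared. No intervals of ratios were taken there, so single genes may lie within counting error. The 10 genes summed to 179 and 401 UMIs in megakaryocyte-like cells and to 138 and 282 UMIs in cluster 23. A gene counts as past 1.5-fold here when its ratio is beyond that and its interval excludes 1. In conventional dendritic-like cells all 10 were past 1.5-fold higher in the MYC library, and 0 lower, where 15.4% and 16.4% of the 7035 genes with enough UMIs were, and their summed level was 699 CPM for the control against 1702 CPM for MYC (log2 ratio 1.28, 1.19 to 1.37). Log2 ratios ran from 0.91 for Mki67 to 1.97 for Cdc20, which had 15.6 and 61.1 CPM. The log2 ratio of the sum was 0.56 with cells assigned to classes by markers and not by cluster. In mature B-like cells 7 of 10 were past 1.5-fold lower, and 0 higher, where 18.1% and 5.3% of 6543 genes were, and the summed level was 857 CPM (2676 UMIs) for the control and 275 CPM (188 UMIs) for MYC (-1.64). That ratio was -0.49 as a mean over cells, -0.66 with doublets kept and -0.70 with a minimum of 1000 UMIs and 500 genes per cell. In this last setting Cdk1 (0.16), Birc5 (0.06) and Plk1 (0.04) turned, with doublets kept Birc5 (0.07) and Plk1 (0.12) did, and as a mean over cells Cdc20 (0.70), Aurkb (0.46) and Plk1 (0.24) did. The B progenitor markers Vpreb1, Rag1 and Rag2 were at 0 in that class of the MYC library, where 2 of 8 B progenitor markers had UMIs against 7 of 8 in the control.

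In the other compared classes few of the 10 passed that size. Over all cells 0 of 10 were higher, where 7.93% of 14164 genes were, and only Mki67 was lower, where 21.7% of genes were. Mki67 was also the 1 gene called lower of 10 in stem or multipotent progenitor-like cells, granulocyte progenitor-like cells, mature neutrophil-like cells and cluster 12, where 11.1%, 23.7%, 22.4% and 13.4% of genes were. None of the 10 was called higher in the first 3 of these, where 5.91%, 4.24% and 7.94% of genes were, and in cluster 12 Birc5 was, where 12.3% were. Immature neutrophil-like and monocyte-like cells had no call among the 10, with 7.83% and 8.55% of genes called higher and 16.5% and 16.2% called lower. T or NK-like cells had 3 higher (Cdc20, Ccnb2 and Cdk1) and 0 lower, against 8.07% and 9.12% of genes, and basophil or mast-like cells 2 (Cdk1 and Birc5) and 0, against 8.38% and 18.1%. Median-of-ratios scaling put the median gene's log2 ratio at -0.21 over all cells and between -0.05 and -0.29 by class. Scaling this away changed the all-gene split over all cells from 7.93% higher and 21.7% lower to 14.3% and 13.4%, and in granulocyte progenitor-like cells from 4.24% and 23.7% to 13.8% and 6.65%. By class, the higher calls went from between 15.2% and 48.4% of all calls to between 53.8% and 67.4%. Of the 10 genes 3 were then called higher and 0 lower in granulocyte progenitor-like cells. The counts were 4 and 0 in basophil or mast-like cells, where 14.8% and 9.1% of genes were called, and 1 and 0 in immature neutrophil-like cells, where 14.3% and 7.07% were. They were 0 and 0 in mature neutrophil-like cells, where 14.4% and 11.9% of genes were called, and 0 and 6 in mature B-like cells, where 11.6% and 6.57% were, and the other counts were as before.

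**Figure D4:**
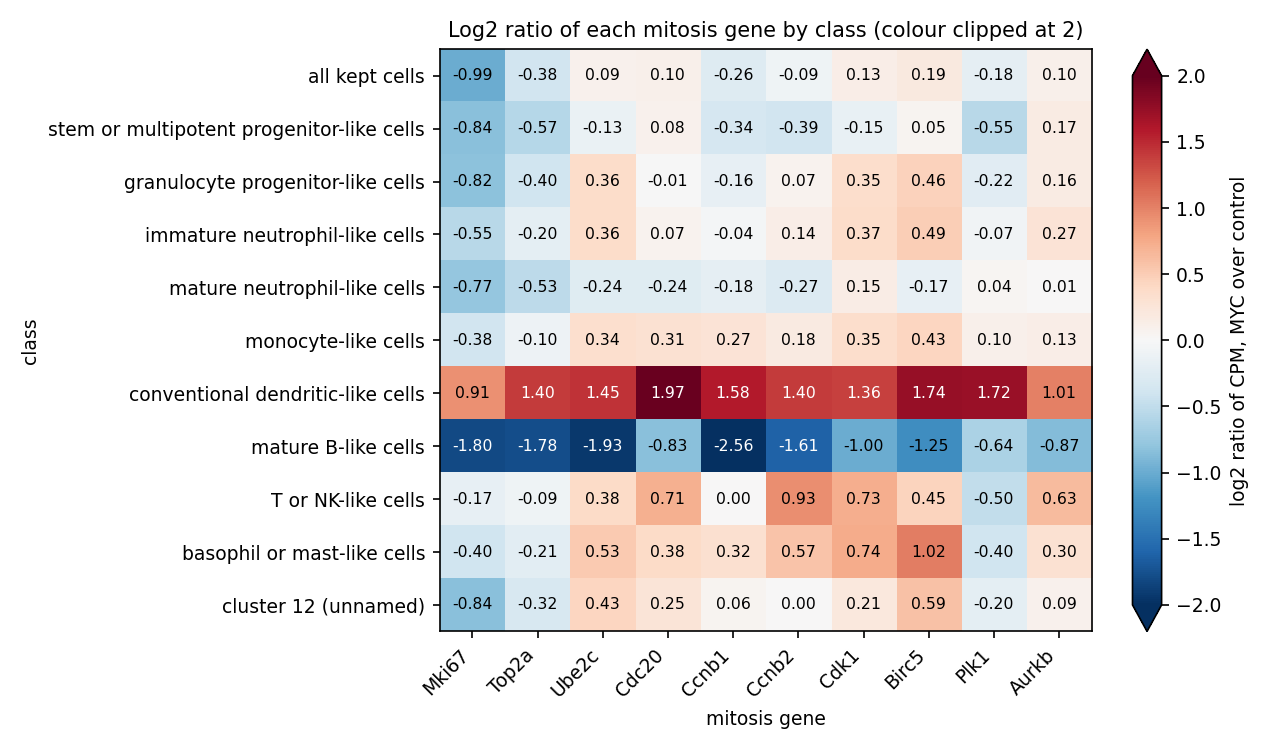
Log2 ratio of CPM, MYC library over control, for each mitosis gene (columns) in all kept cells and each compared class (rows), with the value printed in each square and red for higher in the MYC library. The Mki67 column is negative in every row but conventional dendritic-like cells (0.91), and the Birc5 column is positive in every row but mature neutrophil-like cells (-0.17) and mature B-like cells (-1.25). Median-of-ratios scaling would add between 0.05 and 0.29 to the rows.

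The mix of the 10 genes in positive cells differed between the libraries. Among UMIs of the 10 genes in positive cells, Mki67 gave 41.3% for the control against 27.1% for MYC. Top2a gave 22.8% and 23.2%, Ube2c 10.8% and 15.5%, Birc5 6.7% and 10.3% and Cdk1 4.17% and 6.11%. Within cluster 12 the Mki67 share was 51.5% and 34.6%, in granulocyte progenitor-like cells 29.8% and 19%, and in monocyte-like cells 34.5% and 26.8%. Mki67 was also lower in cells picked by the other 9 genes. Of cells with 2 or more UMIs from the other 9 genes, 82% of 3574 control cells carried a Mki67 UMI and 71.2% of 3014 in the MYC library, while a Birc5 UMI was found in 36.6% of 4297 and 41.9% of 3359. Of cells with 0 UMIs of the other 9, 18.9% and 13.4% carried Mki67. In cells with 5 or more UMIs of the other 9, Mki67 stood at 2442 and 1144 CPM over all classes together (log2 ratio -1.09, -1.11 to -1.07). Among the single classes with a value, the ratio ran from -0.53 in monocyte-like to -0.95 in granulocyte progenitor-like cells. Immature neutrophil-like cells had 1577 and 949 CPM (-0.73). Cluster 12, at 4499 and 2478 CPM (-0.86), gave 638 of the 1913 control cells and 193 of the 1502 MYC cells. The part of class mix in the pooled values was not tested.

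The summed level of the 10 genes depended on Mki67. A sum by itself cannot tell fewer dividing cells from less RNA per dividing cell. The share of positive cells over all thinned cells was 38.3% for the control and 38.9% for MYC. Over all cells the summed level was 2514 CPM for the control against 1904 CPM for MYC, a log2 ratio of -0.40 (-0.41 to -0.39). Cluster 12 gave 33.9% of the control UMIs of the 10 genes but 12% of the MYC ones. It held 7.24% and 2.75% of thinned cells. The part of class mix in the all-cell sum was not tested. Without Mki67 the log2 ratio was -0.10, and without Mki67 and Top2a it was 0.06. In immature neutrophil-like cells the sums were 1989 and 1854 CPM (-0.10), turning to 0.10 without Mki67 and to 0.28 without both, and in granulocyte progenitor-like cells 2169 and 1912 CPM (-0.18), turning to 0.02 and 0.23. In cluster 12 they were 8220 and 6715 CPM (-0.29), turning to 0.12 and 0.32.

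Transcript length moved with these ratios across the genome. Over the 14149 genes with a length in GENCODE, the log2 ratio of a gene and the length of its longest annotated transcript had a Spearman correlation of -0.40, given as a description, since all points come from the same 2 libraries and genes are not replicates. The median log2 ratio was 0.10 in the shortest 25% of genes (up to 1952 bases) and -0.35 in the longest 25% (over 4607 bases). It was lower in each longer group of 25% in every compared class, with correlations from -0.28 in cluster 12 to -0.52 in granulocyte progenitor-like cells. Mki67 has the longest transcript of the 10, at 10061 bases, followed by Top2a at 5221 bases. By this measure Cdk1 at 4375 and Birc5 at 3334 bases are longer than the median gene, and both were higher in the MYC library over all cells. Ccnb2, at 1531 bases, has the shortest. Across the 10 genes the same correlation was -0.35 over all cells and between -0.12 and -0.55 by class. Which transcript of a gene the cells expressed was not measured. The part of length in the Mki67 difference was not tested.

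**Figure D5:**
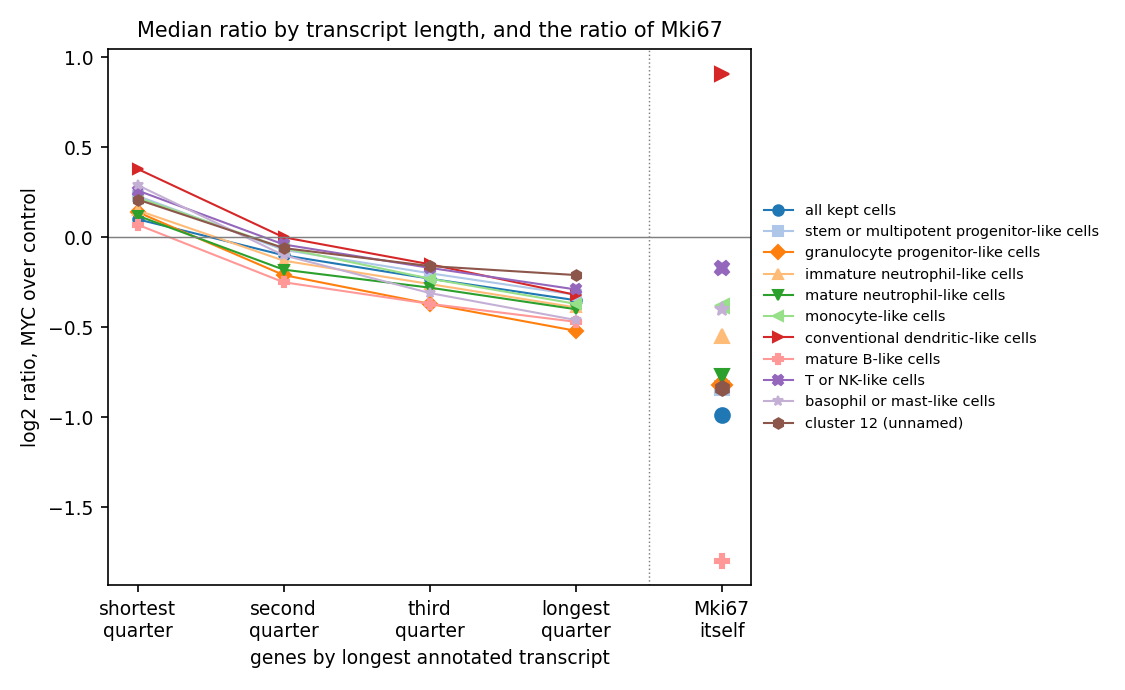
Median log2 ratio of CPM, MYC library over control (vertical axis), for genes in 4 equal groups by longest annotated transcript (horizontal axis), 1 line per class, with the ratio of Mki67 itself at the right. Over all kept cells the medians go from 0.10 to -0.35 and Mki67 lies at -0.99. In conventional dendritic-like cells Mki67 lies at 0.91, above all 4 medians.

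Other cell cycle genes were set beside the 10 to see whether the pattern went beyond them. Over all cells the kinetochore and checkpoint list had 0 of 16 genes higher and 1 lower, the spindle and cytokinesis list 0 of 20 and 2, the mitotic entry and exit list 0 of 17 and 3, and the condensin list 0 of 8 and 4, against backgrounds of 7.93% and 21.7%. Their median log2 ratios were -0.34, -0.37, -0.30 and -0.56, beside 0.00 for the 10 genes and -0.16 for all genes tested (here with 1 CPM added). Of the 12 genes with the most UMIs in these lists, 3 from each, 8 were lower in the MYC library and 4 higher. Cenpf, a large kinetochore protein, stood at 252 and 162 CPM (-0.64) and the centromere histone Cenpa at 142 and 158 CPM (0.15). The 3 spindle genes were lower, the spindle motor Kif11 at 147 and 107 CPM (-0.46), the microtubule bundler Prc1 at 156 and 122 CPM (-0.36) and Nusap1 at 169 and 149.8 CPM (-0.17, near the median of all genes tested). The condensin subunit Smc4 stood at 504 and 330.4 CPM (-0.61), while Ube2s, which extends ubiquitin chains with the anaphase-promoting complex, stood at 279 and 325 CPM (0.22) and Cks2, a small Cdk1 subunit, at 215 and 231 CPM (0.11). Of the cell cycle transcription list 6 of 16 genes were lower and 0 higher, with E2f2 at 142 and 85.1 CPM (-0.73). In conventional dendritic-like cells 14 of 15 kinetochore and checkpoint genes tested, all 20 spindle and cytokinesis genes, 13 of 15 mitotic entry and exit genes and 5 of 8 condensin genes were higher, where 15.4% of all genes were. Of the cell cycle transcription list 3 of 14 genes tested were higher there, with a median log2 ratio of 0.05, and 0 genes of these 5 lists were lower, where 16.4% of all genes were.

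Most positive cells carried replication genes too. At 2 or more thinned UMIs of 28 S-phase genes, 73.1% of positive control cells and 71.3% in the MYC library qualified, against 26.6% and 22.1% of the other cells. In granulocyte progenitor-like cells that share was 93.8% and 83% of positive cells and 99.3% and 96.5% of the others. The S-phase list itself had 13 of 28 genes lower in the MYC library over all cells and 0 higher, where 21.7% and 7.93% of all genes were, with a median log2 ratio of -0.57. By class that median ran from -0.88 in mature B-like to 0.46 in conventional dendritic-like cells. It was -0.08 in monocyte-like cells, -0.30 in immature neutrophil-like cells and -0.43 in cluster 12. At 2 or more S-phase UMIs, 52.1% and 58% of monocyte-like cells qualified, and 44.4% and 41.3% of all cells. Cluster 12 held 7.24% and 2.75% of thinned cells, and the part of class mix was not tested. Over all cells Pcna, the replication clamp, stood at 298 and 167 CPM (-0.83) and Rrm1, a ribonucleotide reductase subunit, at 202 and 107 CPM (-0.91). Dut, a dUTPase, stood at 163 and 161 CPM, within counting error.

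A broader list of 54 G2/M genes, which contains 8 of the 10, passed nearly all cells at the same threshold. That threshold is low for so abundant a list and could not separate dividing from non-dividing cells with it. It gave 2 or more UMIs in 98.7% of mature neutrophil-like control cells and 97.2% in the MYC library, and in 95.3% and 95.2% of all cells. Most of the UMIs behind this came from a few genes. Hmgb2, a chromatin protein, gave 43.4% and 45% of the list's UMIs there and Lbr, the lamin B receptor that shapes the neutrophil nucleus, 13.7% and 16.4%, followed by Hjurp, Tmpo and Smc4 with 2.51% to 5.38% each. The 10 genes together were equal to 9.27% and 8.46% of the list's UMIs in mature neutrophil-like cells, and to 25% and 22.8% over all cells. Hmgb2 itself stood at 1587 and 1325 CPM in mature neutrophil-like cells and 3422 and 3328 CPM in immature neutrophil-like cells. As a level the list did differ between classes. It stood at 3661 and 2946 CPM in mature and 9622 and 9047 CPM in immature neutrophil-like cells, and at 24000 and 19883 CPM in cluster 12.

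Of the 8 genes whose level followed the sum of the 10 most closely over classes, 7 were on the mitotic lists, and Esco2, a cohesin acetyltransferase, was on none. Among 9043 genes with at least 20 CPM in at least 1 of 22 points (11 classes in each of the 2 libraries), the highest Pearson correlations of log2(CPM + 1) were those of Tpx2 (0.980), Incenp (0.978), Prc1 (0.977), Kif11 (0.976), Cenpe (0.973), Esco2 (0.962), Cenpf (0.960) and Kif2c (0.960). Points of 1 library share its depth and free RNA, so these are descriptions. The 10 genes' own correlations with the sum, of which each is a part, ran from 0.896 for Aurkb to 0.964 for Ccnb2.

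The feature named MYC was rarer in positive cells over all cells of the MYC library. The sequence behind it is not given in the sources used here. It had 66 UMIs or 1.23 CPM (0.953 to 1.57) in positive cells and 210 UMIs or 4.7 CPM (4.08 to 5.38) in the others. Within immature neutrophil-like cells the levels were 1.41 and 4.26 CPM and within monocyte-like cells 0.777 and 4.03 CPM, but in mature neutrophil-like cells they were 11 (8 UMIs, 4.77 to 21.8) and 10.7 CPM. On few UMIs the order was the other way in granulocyte progenitor-like cells, at 0.944 (7 UMIs) and 0.368 CPM (1 UMI). The same held in conventional dendritic-like cells, at 4.38 (4 UMIs) and 0.97 CPM (1 UMI). Mature neutrophil-like cells gave 8 of the 66 UMIs in positive cells and 88 of the 210 in the others. Positive MYC cells were deeper, with a median of 14393 UMIs against 6851 UMIs for the others, and CPM divides by that depth. The parts of depth and of class mix were not tested.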

How the data were processed

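The authors deposited 1 matrix of unnormalised UMI counts per library, made from the 10x 3′ kit. The file headers name Cell Ranger 6.0.0, and the submitters' processing notes name Cell Ranger 6.0, Seurat, GRCm38 and mm10. The annotation is not given in the sources used here, and gene positions and lengths were taken from GENCODE for GRCm38. Barcodes with at least 500 UMIs, 200 genes and under 10% mitochondrial UMIs were kept. Scrublet's automatic threshold marked 0 cells in the MYC library, so the control's score threshold (0.204) was used in both and removed 558 (3.61%) and 356 (2.76%) cells. Both libraries were clustered together with scanpy 1.11.5 (2000 variable genes, 30 components, 15 neighbours, Leiden resolution 1) without the cell cycle genes listed here. After the data were seen, a cluster well under its library's median depth was required to have 3 of its markers among its 10 leading genes, which left clusters 7 and 23 unnamed. Cells were thinned to 2000 UMIs without replacement. Intervals are exact Poisson for levels, Clopper-Pearson for shares, conditional binomial for ratios and Newcombe's for differences of shares, at 95%. Classes were compared where both libraries had at least 100 thinned cells, and genes where both libraries together had at least 50 UMIs in the class. Medians of lists use log2(CPM + 1). All 10 genes are named whatever their values, from each other list up to the 3 genes with the most UMIs, the 8 genes most correlated with the sum, and the 5 genes of the broad list with the most UMIs in mature neutrophils. The members and lists were chosen with earlier results of these data known. In simulated counts for all kept cells (14133 genes) the 1.5-fold rule called 50 of 50 genes changed 2-fold, 48 of 50 changed 0.5-fold and 68 of 13935 unchanged genes. Alternatives covered the depth and seed of thinning, the UMI threshold, cell filters, doublets, clustering, class definition, scaling and the genes summed.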

Additional observations from a re-analysis of the deposited data

Results flagged for a closer look

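In 7 classes the share of positive cells differed between the libraries by more than counting error, and all 7 differences were not tested, since there is 1 library per group. They were -14.8 percentage points in stem or multipotent progenitor-like cells, 4.68 in immature neutrophil-like, -5.7 in mature neutrophil-like, 9.3 in monocyte-like, 25.1 in conventional dendritic-like, 9.27 in T or NK-like and 12 in basophil or mast-like cells (MYC library minus control). The signs differed between classes. Of these, the mature neutrophil-like difference was 0.0346 at 5 or more UMIs and the T or NK-like difference 0.673 when thinned to 1000 UMIs.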

How the results depend on the processing

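The values below, differences in percentage points for positive shares and log2 ratios for levels (MYC library over control), moved or turned in the setting named, and the cause was not tested. Thinned to 1000 UMIs, shares differed by 0.673 (T or NK-like) and -1.69 (mature neutrophil-like). Thinned to 4000 UMIs, the share differed by -1.75 (all cells). At 1 or more UMIs, shares differed by -1.02 (all cells), 0.851 (immature neutrophil-like) and -8.82 (mature neutrophil-like). At 3 or more UMIs, the share differed by -1.84 (mature neutrophil-like). Without Mki67 and Top2a, shares differed by 3.55 (all cells), 7.26 (immature neutrophil-like), -0.268 (mature neutrophil-like) and 4.47 (cluster 12). The summed levels had log2 ratios of 0.06 (all cells), 0.48 (T or NK-like), 0.56 (basophil or mast-like), 1.52 (conventional dendritic-like), 0.23 (granulocyte progenitor-like), 0.28 (immature neutrophil-like), -1.35 (mature B-like), -0.14 (mature neutrophil-like), 0.29 (monocyte-like), -0.12 (stem or multipotent progenitor-like) and 0.32 (cluster 12) there. At 5 or more UMIs, shares differed by 0.0346 (mature neutrophil-like), 4.85 (monocyte-like) and -3.59 (cluster 12). With doublets kept, the share differed by 16.8 (immature neutrophil-like). The summed levels had log2 ratios of -0.39 (all cells), 0.96 (conventional dendritic-like), -0.24 (granulocyte progenitor-like), 0.06 (immature neutrophil-like), -0.66 (mature B-like), -0.57 (mature neutrophil-like) and 0.04 (monocyte-like) there. Single genes had 0.07 for Birc5 (mature B-like) there. With cells under 5% mitochondrial UMIs, shares differed by 11.7 (conventional dendritic-like) and 13.6 (monocyte-like). The summed levels had log2 ratios of -0.46 (all cells), 1.40 (conventional dendritic-like), -0.33 (granulocyte progenitor-like), -0.15 (immature neutrophil-like), -0.36 (mature neutrophil-like), 0.14 (monocyte-like) and -0.28 (stem or multipotent progenitor-like) there. Single genes had 0.06 for Top2a (monocyte-like) there. With a minimum of 1000 UMIs and 500 genes per cell, the share differed by 9.91 (immature neutrophil-like). The summed levels had log2 ratios of -0.29 (granulocyte progenitor-like), 0.04 (immature neutrophil-like), -0.70 (mature B-like), 0.03 (monocyte-like) and -0.14 (stem or multipotent progenitor-like) there. Single genes had 0.16 for Cdk1 (mature B-like), 0.06 for Birc5 (mature B-like) and 0.00 for Plk1 (stem or multipotent progenitor-like) there. At Leiden resolution 0.5, the share differed by -9.52 (granulocyte progenitor-like). The summed levels had log2 ratios of -0.27 (granulocyte progenitor-like) and -0.13 (immature neutrophil-like) there. Leaving the 20 most abundant genes out of CPM totals, the summed levels had log2 ratios of -0.49 (all cells), -0.05 (T or NK-like), -0.06 (basophil or mast-like), 1.05 (conventional dendritic-like), -0.22 (granulocyte progenitor-like), -0.36 (mature neutrophil-like), -0.15 (monocyte-like), -0.63 (stem or multipotent progenitor-like) and -0.44 (cluster 12). Single genes had -0.00 for Ube2c (all cells), -0.03 for Plk1 (monocyte-like) and -0.01 for Aurkb (monocyte-like) there. Under median-of-ratios scaling, the summed levels had log2 ratios of -0.19 (all cells), 0.24 (basophil or mast-like), 0.11 (granulocyte progenitor-like), 0.11 (immature neutrophil-like), -1.34 (mature B-like), -0.22 (mature neutrophil-like), 0.13 (monocyte-like), -0.35 (stem or multipotent progenitor-like) and -0.23 (cluster 12). Single genes had 0.00 for Top2a (immature neutrophil-like), 0.04 for Top2a (monocyte-like), 0.13 for Ccnb1 (granulocyte progenitor-like), 0.12 for Ccnb2 (all cells), 0.03 for Plk1 (all cells) and 0.07 for Plk1 (granulocyte progenitor-like) there. As a mean over cells, the summed levels had log2 ratios of -0.25 (all cells), 0.38 (T or NK-like), 0.04 (immature neutrophil-like), -0.49 (mature B-like), 0.12 (monocyte-like) and -0.59 (stem or multipotent progenitor-like). Single genes had 0.00 for Top2a (immature neutrophil-like), 0.05 for Top2a (monocyte-like) and 0.05 for Plk1 (all cells) there. Without Mki67, the summed levels had log2 ratios of -0.10 (all cells), 0.26 (T or NK-like), 0.25 (basophil or mast-like), 1.47 (conventional dendritic-like), 0.02 (granulocyte progenitor-like), 0.10 (immature neutrophil-like), -0.27 (mature neutrophil-like), 0.15 (monocyte-like), -0.31 (stem or multipotent progenitor-like) and 0.12 (cluster 12). With each cell classified by its markers, the summed levels had log2 ratios of -0.08 (T or NK-like), 0.56 (conventional dendritic-like), -0.13 (granulocyte progenitor-like), -0.13 (immature neutrophil-like), -1.25 (mature B-like), 0.06 (monocyte-like) and -0.38 (stem or multipotent progenitor-like). At Leiden resolution 2, the summed levels had log2 ratios of 1.37 (conventional dendritic-like), -0.14 (granulocyte progenitor-like) and -0.12 (immature neutrophil-like). The settings of 5 or more UMIs and without Mki67 were added after the data were seen. Of the other values of single genes, 789 kept their sign, 16 came to 0.00 and 48 took the other sign, the last all in genes and classes where the interval of the reported ratio included 0. Genes past the fold threshold numbered 347 to 1083 higher and 617 to 2360 lower by class, against 81 to 414 and 219 to 667 at 2-fold and 703 to 1505 and 430 to 1114 under median-of-ratios scaling. No paired analysis was possible because there is 1 library per group. At a depth of 2000 UMIs, the 120 mature B-like cells of the MYC library, of which 0 reached 5 UMIs, allow a share of up to 3.03%.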

Other observations

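Barcodes left out of the report also carried the 10 genes. Of barcodes with at least 10% mitochondrial UMIs that reached 2000 UMIs, 371 of 546 in the control (67.9%) and 504 of 740 in the MYC library (68.1%) were positive. Called doublets were positive in 45.8% and 51% of cells. Among classes too small in 1 library for a comparison, plasmacytoid dendritic-like cells were positive in 15.4% of 253 and 30.6% of 72 cells, B progenitor-like cells in 53.7% of 387 cells and 8 of 16, and macrophage-like cells in 16.7% of 18 and 24.5% of 473. Positive plasmacytoid dendritic-like cells had immature neutrophil markers at 26860 and 13844 CPM, against 2908 and 4682 CPM in the others. In B progenitor-like control cells the order was the other way, with 3724 against 6217 CPM. The part of RNA from other cell types in these shares was not tested. In early erythroid progenitor-like cells 58.5% and 30.9% carried 5 or more UMIs.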
